A study of Mus musculus with 2 samples.

Results

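Small RNA of plasma EVs held 32 miRNA species that were counted in the exercise library (eEVs) and not in the sedentary library (sEVs), outside a set of families that was left aside. The members were chosen by their raw counts, as the species with 0 counts in sEVs and 1 or more in eEVs. The let-7 5p arms with miR-98-5p, a set of other named miRNAs (miR-16, miR-23a, miR-23b, miR-24, miR-27a, miR-27b, miR-126a, miR-142a, miR-150, miR-155, miR-181a, miR-181b, miR-191 and miR-223) and the miR-297, miR-466, miR-467, miR-669, miR-3470 and miR-3473 families were left out. Of 1982 listed miRNA names, 117 had a count in either library, and 35 of these (29.9%) were counted only in eEVs, against 51 only in sEVs and 31 in both. The left-out families took 3 of the 35, namely miR-3470b, miR-3473f and miR-467g. The 32 members were 32 of the 66 species counted in eEVs. Since the contrast of eEVs with sEVs chose the members, it is described below and not tested.

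Both libraries came from wild-type C57BL/6 mice aged 8 weeks. The exercise group ran for 60 min on a treadmill to exhaustion, from 10 to 24 m/min, after days of habituation to the belt, and the sedentary group stayed at rest. Plasma of 20 mice was pooled per group, to about 10 ml, and EVs were collected by size exclusion chromatography (SEC). Each group gave 1 library of 50 nt single-end reads, so the counts have no replicate check and mice within a pool cannot be compared. In total 2851 counts fell on miRNAs in sEVs and 820 in eEVs, a ratio of 3.48, and 1 count was 0.122% of the eEV library. A count of 0 in sEVs allows a share of up to 0.105%, taken as 3 counts of the total. Reads carried no molecular identifiers, so all intervals and limits cover counting error only.

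A miRNA is cut from an RNA hairpin, whose 2 arms give a 5p and a 3p strand. One strand, the guide, is usually kept in the Argonaute silencing complex and the other, the passenger, is usually degraded. The seed, bases 2 to 8 of the mature miRNA, pairs with target mRNAs, so species with the same seed form a family. miRNAs from hairpins close together on 1 primary transcript form a cluster. Plasma miRNAs come from blood cells, vessel walls and tissues, and travel in EVs, in protein complexes and in lipoproteins.

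The sequences on which the results turn are printed 5′ to 3′ from RefSeq (GRCm38.p6), with the seed in capitals. The table held 29 of the 32 members, and miR-140-5p, miR-143-5p and miR-5620-3p are named only. The first set shows the let-7 3p arms that were counted in either library, because the members among them sit beside relatives that were counted in sEVs.
let-7a-1-3p: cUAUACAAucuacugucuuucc
let-7c-2-3p: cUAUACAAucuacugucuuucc
let-7d-3p: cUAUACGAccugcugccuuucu
let-7b-3p: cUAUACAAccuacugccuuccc
let-7c-1-3p: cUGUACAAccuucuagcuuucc
let-7a-2-3p: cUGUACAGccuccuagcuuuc

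The mature sequences of let-7a-1-3p and let-7c-2-3p are identical. let-7b-3p has their seed and matches them at 19 positions of 22 counted from the 5′ end. let-7d-3p and let-7c-1-3p have other seeds and match at 17 positions, and let-7a-2-3p at 15. The second set shows both arms of miR-93, miR-20a and miR-92a-1, hairpins of related clusters, of which miR-93-5p is not a member. miR-20a-5p and miR-93-5p have the same seed.
miR-93-3p: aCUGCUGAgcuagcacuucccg
miR-93-5p: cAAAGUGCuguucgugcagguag
miR-20a-5p: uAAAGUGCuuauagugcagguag
miR-20a-3p: aCUGCAUUacgagcacuuaaag
miR-92a-3p: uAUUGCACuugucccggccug
miR-92a-1-5p: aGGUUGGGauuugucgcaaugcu

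The third set shows the other members with 3 counts, which include 4 hairpins with both arms among the members. miR-703 has no arm in its name.
miR-1188-5p: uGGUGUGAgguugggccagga
miR-1188-3p: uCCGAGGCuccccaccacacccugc
miR-370-5p: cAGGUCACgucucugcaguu
miR-370-3p: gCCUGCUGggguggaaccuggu
miR-574-5p: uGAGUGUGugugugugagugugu
miR-574-3p: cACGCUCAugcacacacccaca
miR-3572-5p: uGGGGAACagggcaagguggac
miR-3572-3p: uACACUUGuccuucuuuccccag
miR-125a-5p: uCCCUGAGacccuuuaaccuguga
miR-703: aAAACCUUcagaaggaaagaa

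No member had more than 4 counts in eEVs. let-7a-1-3p, let-7c-2-3p and miR-93-3p had 4 counts each, and 0 in sEVs. These 4 counts were 0.488% of the eEV library (exact binomial 95% interval 0.133–1.24%). At that share the deeper sEV library would hold 13.9 counts. The share in eEVs was 4.64 times that of 3 counts in sEVs, a value that leaves out the counting error of the 4 counts and is no lower limit.

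The other 29 members had 3 counts or fewer in eEVs, and no fold is given for them. Both arms of miR-1188, miR-20a, miR-3572, miR-370 and miR-574, with miR-125a-5p and miR-703, had 3 counts in eEVs, a share of 0.366% (0.0755–1.07%), where an equal share would put 10.4 counts in sEVs. Both arms of miR-140 and miR-7068, with miR-3084-5p, miR-92a-1-5p and miR-92a-3p, had 2 counts, 0.244% (0.0295–0.878%), equal to 6.95 counts in sEVs. The remaining 10 species had 1 count, 0.122% (0.00309–0.678%), equal to 3.48 counts in sEVs. They were let-7d-3p, miR-143-5p, miR-342-3p, miR-5620-3p, miR-7a-5p, miR-7a-1-3p and both arms of miR-3069 and miR-339.

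**Figure D1:**
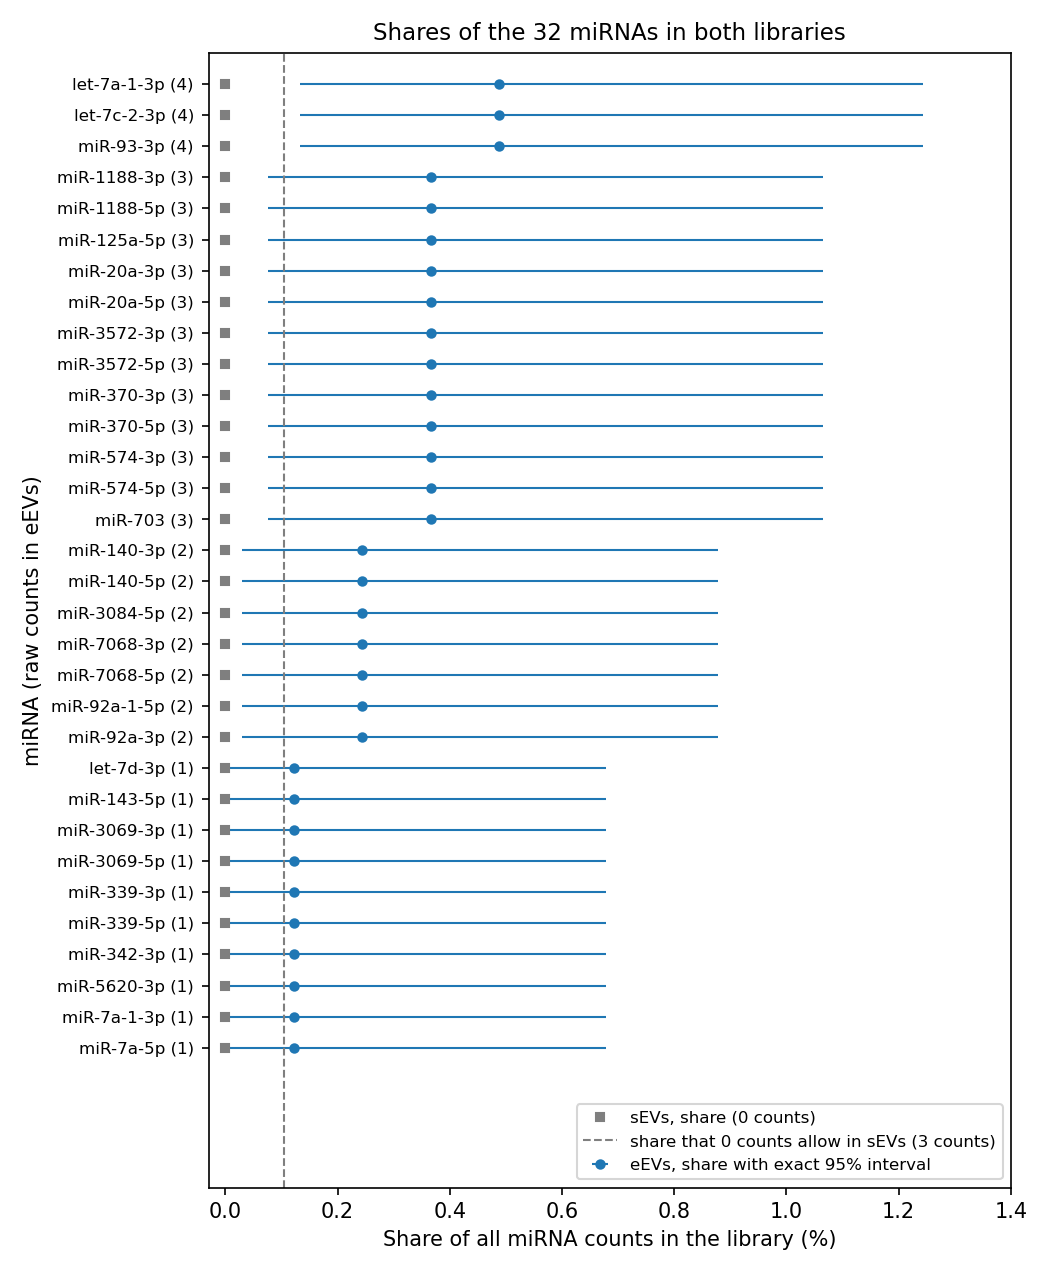
Share of all miRNA counts in the library (percent, horizontal) for each of the 32 species, with raw eEV counts in brackets. Blue points with bars are eEV shares with exact 95% intervals, grey squares are the sEV shares, all 0, and the dashed line is the 0.105% that 0 counts allow in sEVs. The points take 4 values, from 0.122% for 1 count to 0.488% for 4 counts.

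Together the members held 72 of the 820 eEV counts, or 8.78% (6.93–10.9%), and 15.7% of the total without the most abundant miRNA, miR-23a-3p. The 3 species of the left-out families held another 30 counts, 3.66% of the library. At the edge of the rule lay miR-1194 and miR-93-5p, each with 1 count in sEVs and 4 in eEVs, and miR-712-5p and miR-466q, each with 1 in both. miR-466q belongs to a left-out family. Just inside were the 10 members with 0 counts in sEVs and 1 in eEVs.

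Among the let-7 species, 3 members were 3p arms. let-7 miRNAs repress growth and cell cycle genes, and their maturation is blocked by LIN28. Their 5p arm is the usual guide. Mirlet7a-1 (chr13:48538179-48538272, minus strand) and Mirlet7d (chr13:48536012-48536114, minus strand) lie 2065 nt apart, with Mirlet7f-1 between them, in exons of the lincRNA 6720427I07Rik. Mirlet7c-2 (chr15:85706603-85706697, plus strand) lies 622 nt from Mirlet7b in an exon of Lncppara. All positions are those of hairpins in GRCm38.

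The 11 listed let-7 3p arms held 21 of the 2851 counts in sEVs and 10 of the 820 in eEVs, so their share was not lower in eEVs. Among these arms, 1 was counted in both libraries. In sEVs the counts were 9 on let-7c-1-3p, 7 on let-7a-2-3p and 5 on let-7b-3p. In eEVs they were 4 on let-7a-1-3p, 4 on let-7c-2-3p, 1 on let-7b-3p and 1 on let-7d-3p. The 3p arms of let-7a and let-7c were thus counted in both libraries, but under the name of 1 gene copy in sEVs and of another in eEVs. Because let-7a-1-3p and let-7c-2-3p are the same 22 bases, their 4 counts each cannot be told apart by sequence.

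**Figure D2:**
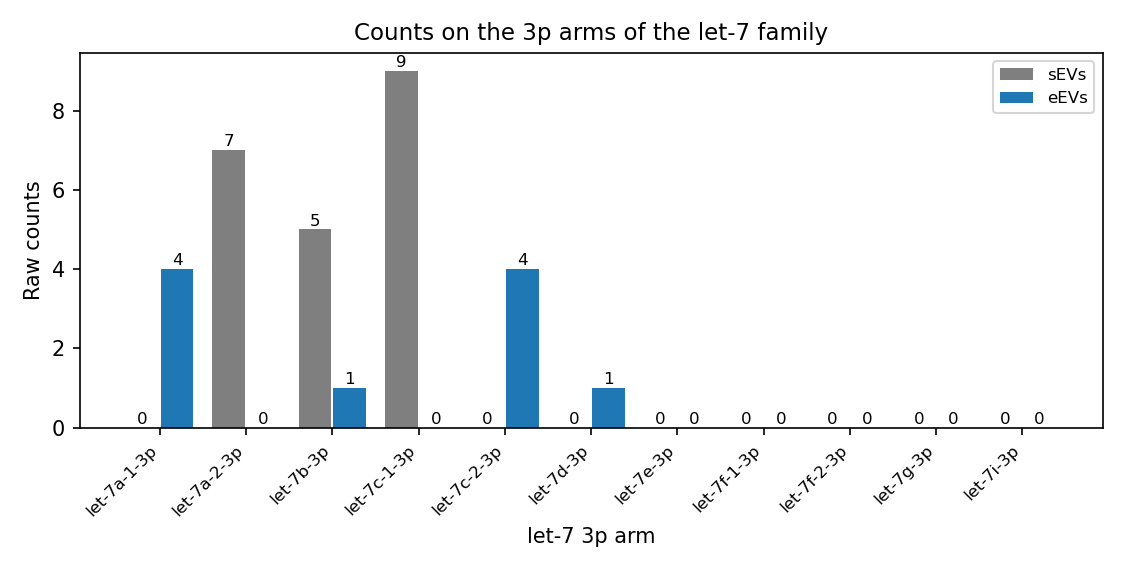
Raw counts (vertical) on each of the 11 listed let-7 3p arms in sEVs (grey) and eEVs (blue), 1 library each, with the count above each bar. let-7a-2-3p and let-7c-1-3p were counted only in sEVs, let-7a-1-3p, let-7c-2-3p and let-7d-3p only in eEVs, and let-7b-3p in both.

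The 5p arms of the same hairpins were counted in both libraries. On let-7a-5p 38 counts fell in sEVs and 4 in eEVs, a ratio of shares of 0.366 (exact 95% interval 0.0949–1.02), or 0.223 with 1 count added to every miRNA. let-7d-5p had 8 and 1, a ratio of 0.435 (0.00979–3.24). let-7c-5p had 12 and 13, and its share was 3.77-fold higher in eEVs (1.58–9.03), or 1.88-fold with 1 count added to every miRNA. The intervals cover counting error in 1 library per group and are not tests of exercise against rest. The 5p arms of let-7a and let-7c are each made from more than 1 gene copy, so their counts are not those of Mirlet7a-1 or Mirlet7c-2 alone.

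The rule fixed the 0 of each 3p member in sEVs, so the following shares describe the arms without a test. Set against both arms together, let-7a-1-3p held 0 of 38 counts in sEVs, which allows a share of up to 9.25% (exact upper bound), and 4 of 8 in eEVs (50%, 15.7–84.3%). let-7c-2-3p held 0 of 12 counts in sEVs, with an upper bound of 26.5%, and 4 of 17 in eEVs (23.5%, 6.81–49.9%). let-7d-3p held 0 of 8 counts in sEVs and 1 of 2 in eEVs. The let-7a and let-7c shares leave out the 3p arms of other gene copies. let-7a-2-3p had 7 counts in sEVs and let-7c-1-3p had 9, with 0 in eEVs for both. The shares thus do not show whether the 3p arms of let-7a or let-7c as a whole held more in eEVs.

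The cluster that runs from miR-17 to miR-92a, which promotes proliferation and is needed for B cell development, gave 4 members. Mir20a (chr14:115044157-115044263, plus strand) and Mir92-1 (chr14:115044427-115044506, plus strand) lie 164 nt apart in an exon of Mir17hg, the host transcript of the cluster. miR-20a-5p and miR-20a-3p had 3 counts each in eEVs, and miR-92a-3p and miR-92a-1-5p had 2 each, with 0 in sEVs for all 4. The other arms of the cluster, from miR-17, miR-18a, miR-19a and miR-19b, had 0 counts in both libraries. The 14 listed arms of the cluster's miRNAs thus held 0 counts in sEVs and 10 in eEVs, 1.22% of that library. All 10 lay on the 4 members, whose 0 in sEVs was set by the rule, so the contrast is no separate result about the cluster. They also include both arms of 2 pairs with equal counts. miR-92a-3p also comes from Mir92-2 on chromosome X, in the miR-106a-363 cluster. The arms of that cluster other than miR-92a-3p and miR-92a-1-5p, which the list also names, with miR-92a-2-5p among them, had 0 counts in both libraries.

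The related miR-106b-25 cluster lies in Mcm7, which encodes a subunit of the replicative helicase. Its hairpin Mir93 (chr5:138165523-138165610, minus strand) gave the member miR-93-3p, with 0 and 4 counts in sEVs and eEVs. The guide miR-93-5p had 1 and 4, and its share was 13.9-fold higher in eEVs, with an exact interval from 1.38 to 685. It is shown because the rule chose its partner arm, whose 4 eEV counts equal its own. The interval covers counting error in 1 library per group and is not a test of exercise against rest. The ratio was 4.36 with 1 count added to every miRNA and 20 with DESeq2 size factors. miR-25 and miR-106b, 119 and 127 nt from Mir93, had 0 counts on every arm in both libraries. Of the species with the seed AAAGUGC in the table, miR-20a-5p and miR-93-5p were counted, and miR-17-5p, miR-20b-5p, miR-106a-5p, miR-106b-5p and miR-6383 had 0 counts. The 5 other species with the seed of miR-92a-3p, namely miR-25-3p, miR-32-5p, miR-363-3p, miR-367-3p and miR-92b-3p, had 0 counts as well.

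Mir1188 (chr12:109611822-109611941, plus strand) and Mir370 (chr12:109618258-109618336, plus strand) lie 6317 nt apart in introns of Rian, a maternally expressed noncoding RNA of the imprinted Dlk1-Dio3 region. All 4 arms of both hairpins had 3 counts in eEVs and 0 in sEVs. Mir341, 227 nt from Mir1188, was counted in sEVs alone, with 1 count on each arm in sEVs and 0 in eEVs. The other hairpins of the region further than 10000 nt away were not examined here.

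miR-125a-5p, a species with roles in blood stem cells, had 3 counts in eEVs and 0 in sEVs. Its hairpin (chr17:17830812-17830879, plus strand) lies 368 nt from Mirlet7e, in an exon of Spaca6. let-7e-5p was found in sEVs alone, with 4 counts. miR-125b-5p and miR-351-5p, which have the seed of miR-125a-5p, had 0 counts in both. The list of miR-99, miR-100 and miR-125 species held no other count in its 11 arms.

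Both arms of miR-574 had 3 counts in eEVs, from a hairpin in an intron of Fam114a1 (chr5:64970318-64970395, plus strand). miR-574-5p is a run of GU repeats, and its 23 bases also occur on the same strand of transcripts of 3 genes, Celf4, F630040K05Rik and Rapgefl1. Both arms of miR-3572 had 3 counts, from a hairpin in an exon of Cnot3 (chr7:3655962-3656047, plus strand), a subunit of the CCR4-NOT deadenylase. miR-703, with 3 counts, is annotated opposite an intron of Cfap299 (chr5:98475556-98475664, minus strand). Its 21 bases also occur on the same strand of the mRNA of Eef1a1, the abundant translation elongation factor. A match shows that the letters occur there, and the origin of the reads was not tested.

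The members with 1 or 2 counts came from hairpins spread over the genome. Mir140 (chr8:107551244-107551313) lies in Wwp2 and is known for its role in cartilage, and both its arms had 2 counts. Mir7068 (chr8:72470016-72470089) lies in an exon of Cherp and also had 2 on each arm. miR-3084-5p, with 2 counts, is encoded by copies of a hairpin on chromosome 19 that overlap the small nucleolar RNAs Snora19 and Gm23658. Mir3069 overlaps the small Cajal body RNA Scarna13 on chromosome 12, with 1 count on each arm. miR-7a-5p and miR-7a-1-3p, with 1 count each, share a hairpin in an intron of Hnrnpk. miR-7 is abundant in neurons and endocrine cells. miR-339 and miR-342 lie in introns of 3110082I17Rik and Evl.

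Many members came in pairs with equal counts on both arms, which the rule did not use. Of 22 pairs of arms that held a member, 14 (63.6%) had the same count on both arms in eEVs. In 11 of these both arms were members, namely miR-1188, miR-20a, miR-3572, miR-370 and miR-574 with 3 and 3 counts, miR-140, miR-7068 and miR-92a-1 with 2 and 2, and miR-3069, miR-339 and miR-7a-1 with 1 and 1. The other 3 were let-7a-1 and miR-93, with 4 and 4 counts, and let-7d, with 1 and 1. In sEVs the 5p arms of let-7a, miR-93 and let-7d had 38, 1 and 8 counts, beside the 0 that the rule sets on their 3p arms. In all, 25 of the 32 members (78.1%) belonged to a pair with equal counts in eEVs.

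**Figure D3:**
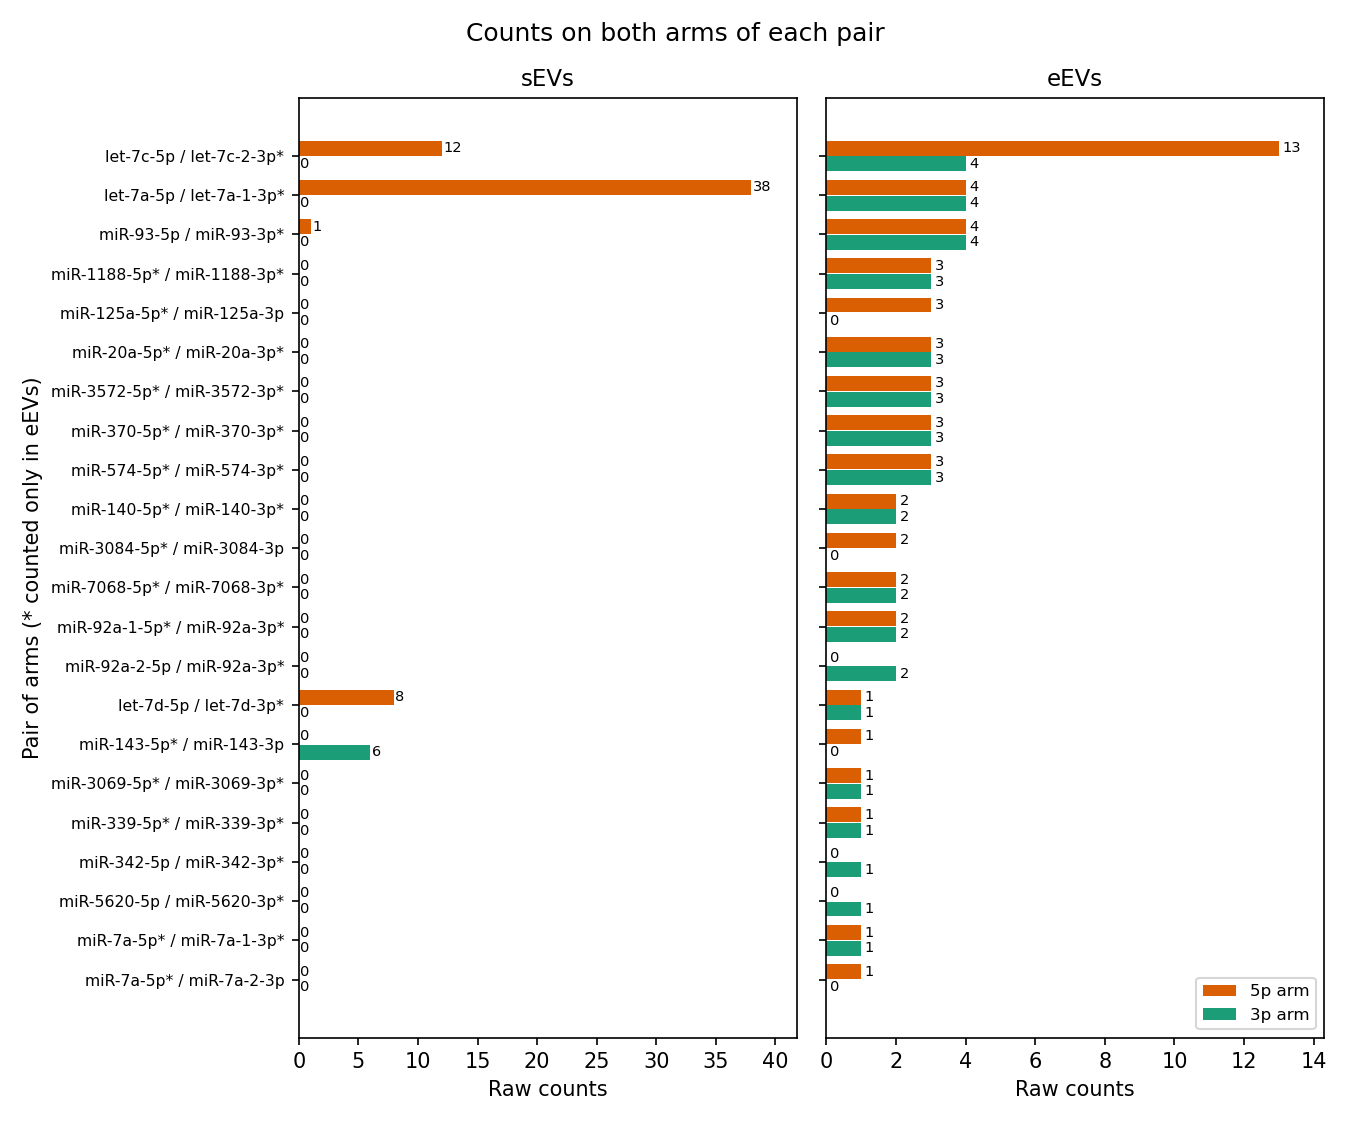
Raw counts on the 5p arm (orange) and 3p arm (green) of each of the 22 pairs that hold a member, in sEVs (left) and eEVs (right, with a different scale), 1 library each. Asterisks mark the members. In eEVs 14 pairs have bars of equal length, while in sEVs the rule sets every member arm to 0.

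The remaining 8 pairs were unequal. The let-7c-2 pair had 13 and 4 counts on its 5p and 3p arms in eEVs. miR-125a had 3 and 0, miR-3084 had 2 and 0, and miR-143 had 1 and 0, while miR-342 and miR-5620 had 0 and 1. The last 2 were the pairs of miR-7a-5p with miR-7a-2-3p and of miR-92a-3p with miR-92a-2-5p, whose counted arm also stands in an equal pair. miR-143-5p was the only member whose other arm was counted in sEVs alone, with 6 counts on miR-143-3p there and 0 in eEVs.

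Of all pairs with both arms counted in eEVs, 17 of 20 (85%) were equal. These were 14 of the 15 pairs with a member and 3 of the 5 others, the equal ones being miR-3068, miR-345 and miR-677. In sEVs 14 of 23 such pairs (60.9%) were equal. With pairs counted on 1 arm included, the equal share was 17 of 41 (41.5%) in eEVs and 14 of 55 (25.5%) in sEVs. Equal pairs outside the members reached higher counts, with 78 on each arm of miR-677 in sEVs and 10 in eEVs, and 12 on each arm of miR-101b and miR-345 in sEVs. The pairs were set side by side without a test.

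**Figure D4:**
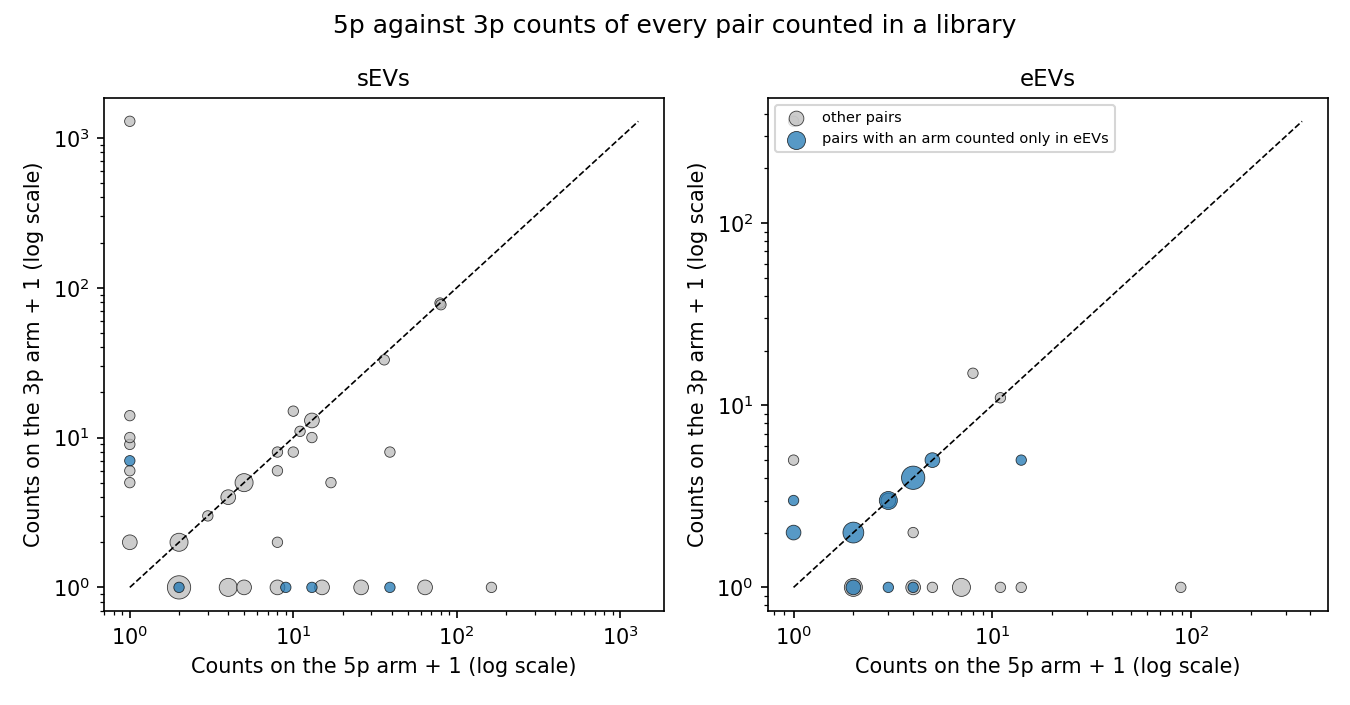
Counts on the 5p arm (horizontal) against the 3p arm (vertical), each plus 1 on a log scale, for every pair counted in sEVs (left) and eEVs (right). Blue pairs hold a member, grey pairs do not, the area of a point grows with the number of pairs on it, and the dashed line marks equal counts, on which 14 of the 22 blue pairs lie in eEVs.

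For 13 of the 14 pairs with equal counts in eEVs the table gave both arms. From the first base of the 5p arm to the last of the 3p arm they spanned 57 to 76 nt, with a median of 61 nt, and the gap between the arms was 12 to 32 nt. All 13 spans were longer than the 50 nt read, so no single read held both arms in full. How reads were assigned to arms is not given in the sources used here, and whether equal arms were read separately was not tested. With such pairs counted once where they were equal in both libraries, the members came to 21 names and 48 counts, 5.85% (4.35–7.69%) of the eEV library.

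**Figure D5:**
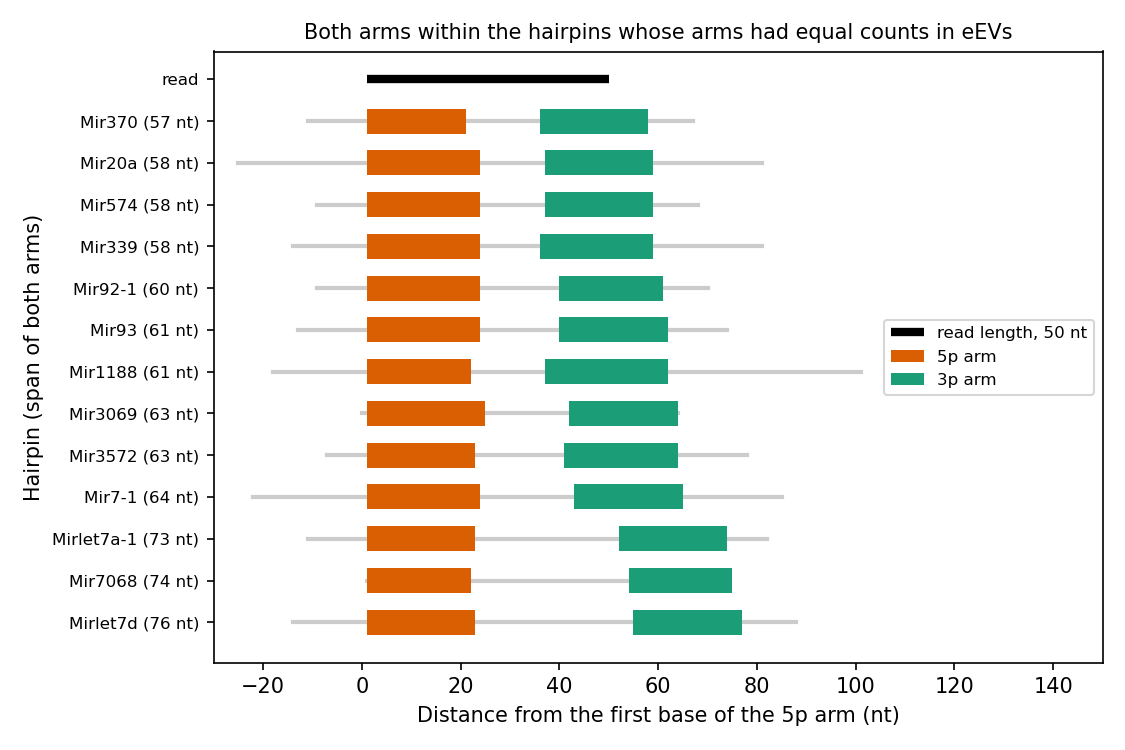
Position of the 5p arm (orange) and 3p arm (green) in the 13 hairpins whose arms had equal counts in eEVs, in nt from the first base of the 5p arm, with the rest of the hairpin in grey and the 50 nt read in black. Spans run from 57 nt for Mir370 to 76 nt for Mirlet7d, all longer than the read.

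By arm, the members were 14 5p arms, 17 3p arms and miR-703. The species counted only in sEVs were similar, with 24 5p arms, 25 3p arms and 2 without an arm in the name. Those counted in both libraries had 17, 7 and 7. The 29 with a sequence were 20 to 25 nt long, with a median of 22 nt, and their GC content ranged from 33.3 to 73.9% with a median of 50%. The median GC content was 45.5% in the species counted in both libraries and in those counted only in sEVs. Exact copies of the mature sequence were found in a transcript annotated as another type than miRNA for 19 of the 29, against 16 of 25 species counted in both libraries and 15 of 42 counted only in sEVs. For the members other than miR-574-5p and miR-703, these transcripts overlap an annotated hairpin with that mature sequence.

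Of 10 lists of miRNAs typical of a cell or tissue, 3 held a member, and 4 of the 32 members (12.5%) were in a list. Of the other 57 detected species outside the left-out families 13 (22.8%) were in one, and of all 117 detected species 26 (22.2%). In pooled plasma, more vesicles of a source and more RNA per vesicle cannot be told apart. miR-92a-3p and miR-92a-1-5p were in the red cell list, which held 33 counts in sEVs and 40 in eEVs. By share the list was higher in eEVs, with 1.16% of sEVs and 4.88% of eEVs. The list does not hold miR-16, another abundant species of red cells, of which miR-16-5p had 7 counts and miR-16-2-3p 1 in sEVs, and both had 0 in eEVs. Within the list, miR-451a, the most typical species of red cells, had 27 counts in sEVs and 36 in eEVs. It held all 36 eEV counts of the list outside the members. Both arms of miR-15a went the other way, with 3 counts each in sEVs and 0 in eEVs, and miR-144, miR-486a and miR-486b had 0 counts in both libraries. The part of red cell RNA in the counts of the members was not tested.

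miR-342-3p, a species abundant in lymphocytes, was in the white blood cell list, which held 229 counts in sEVs and 29 in eEVs. The share of the list was 8.03% in sEVs and 3.54% in eEVs, of which miR-342-3p gave 1 count in eEVs. miR-143-5p was in the list of fibroblasts and smooth muscle, with 8 and 1 counts (0.2806% of sEVs and 0.122% of eEVs). The lists of platelets, endothelium and liver held no member. Platelets had 64 and 16 counts, near-equal shares of 2.245% in sEVs and 1.951% in eEVs. Endothelium had 24 and 6 (0.8418% and 0.7317%), and liver had 20 and 0 (0.7015% and 0%). The lists of skeletal and heart muscle, neurons, epithelium and pancreas had 0 counts in both libraries, so none of the 17 listed arms of muscle, miR-1a, miR-133a and miR-206 included, was counted in eEVs after the run. A count of 0 allows a share of up to 0.366% in that library. Of 16 lists of families and clusters, 4 held a member, and 6 members (18.8%) were in a list, against 11 of the other 57 species outside the left-out families (19.3%).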

How the data were processed

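Small RNA of SEC-isolated plasma EVs was sequenced as 1 library of sEVs and 1 of eEVs, prepared with the TruSeq Small RNA kit. The authors deposited a table of raw, unnormalized read counts per mature miRNA. The second deposited table is normalized, and its values equal the count as a fraction of the miRNA total of its library. The aligner, the miRNA reference and the genome build are not given in the sources used here. From the count table, 67 columns that carry names of other species were not used. They held 0 counts.

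The members and lists were chosen with earlier results of these data known. All members were named, those with 3 or more counts or with a counted relative singly, together with the other arm of each hairpin and the species just outside the rule. Arms were paired by name. Counts and shares were given exact Poisson and binomial intervals at 95%, ratios of shares an exact interval given the sum of both counts, and a count of 0 a limit of 3 counts. Species with at most 3 counts in each library got no fold. With 1 library per group no test was made. The interval code was tested on simulated data.

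Hairpins and mature sequences were taken from RefSeq (GRCm38.p6), and host genes and exact matches in 141767 transcripts from GENCODE M21. Neighbours were sought within 10000 nt. Alternatives were other count limits, equal arms counted once, the normalized table, TMM factors, DESeq2 size factors, totals without the most abundant miRNA and 1 count added. Python 3.11.15, scipy 1.17.1, edgeR 4.0.16 and DESeq2 1.42.0 were used.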

Additional observations from a re-analysis of the deposited data

How the results depend on the processing

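The number of members depended on how counts were treated. Of 32, 15 had 3 or more counts, 21 remained with equal arms counted once, and, in alternatives chosen after seeing the data, 20 with identical mature sequences also counted once and 7 without any pair whose arms were equal in eEVs. The summed share of 8.78% was 15.7% of the total without the most abundant miRNA and 6.14% with equal arms counted once in the total too. The other 39 values kept their direction or stayed within the limits set for a change, which allowed large changes in size. Among them are the 22 members at 2 or more counts and the ratios for let-7c-5p and miR-93-5p with 1 count added, given below. The number of members was 22 at 2 or more counts, 35 with 1 sEV count allowed and 34.5 expected with sEVs drawn down to the eEV total. The fold of the species with 4 counts against 3 sEV counts, 4.64, ran from 4.55 to 6.67 over 3 other scalings. With 1 count added to every miRNA in place of the 3 sEV counts, which compares 5 counts with 1, it was 8.71. With 1 count added to every miRNA, the ratio for let-7c-5p fell from 3.77 to 1.88, that for let-7a-5p from 0.366 to 0.223 and that for miR-93-5p from 13.9 to 4.36. It reached 20 for miR-93-5p with DESeq2 size factors. A filter of 5 counts over both libraries left none of the 3 species with 4 counts and gave no value. No paired analysis was possible because each group is 1 library. Depth limits every comparison, since 29 of the 32 members had 3 counts or fewer.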
